A study of Mus musculus with 2 samples.

Results

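Smad4 peaks were examined at the loci of the Sox9, Sox5 and Sox6 genes, which encode the trio of transcription factors that direct cartilage formation. The peaks were those whose midpoint lay in 1 of 3 windows of the mouse genome (build mm9): chr11:110800001-113300000 for Sox9 with the gene desert beside it, chr6:143600001-144500000 for Sox5 and chr7:122400001-123500000 for Sox6. They numbered 137 of the 90984 peaks in the list, with 85 at Sox9, 20 at Sox5 and 32 at Sox6. The windows were defined by position, with earlier results of these data known.

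Sox9 binds DNA through an HMG box, is required for mesenchyme to condense into cartilage and activates matrix genes such as Col2a1 and Acan. Sox5 and Sox6 are close relatives of each other that lack a transactivation domain of their own and help Sox9 to act on those genes. BMP and TGF-β signals, which reach chromatin through receptor-activated Smads and their common partner Smad4, promote the same lineage, and the expression of Sox9 is governed by enhancers spread over the desert around it.

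Forelimbs came from C57BL/6 embryos, collected at embryonic days 12.5 and 13.5, and the labels give both ages for each library. ChIP-seq fixes proteins to DNA and sequences the fragments that an antibody pulls down, and 1 library was made with an antibody to Smad4. The other library, of input DNA, held fragments from the same kind of tissue with no antibody step. The submitters asked which genes Smad4 binds directly as chondrocytes, the cells of cartilage, mature to hypertrophy. Whole forelimb also holds muscle, tendon, skin and vessel precursors, and the list does not separate cell types. With 1 library of each kind there is no replicate and no test, and the depth of either library is unknown. Intervals below are exact 95% intervals (Poisson for numbers of peaks or tags, Clopper-Pearson binomial for shares) and cover counting error only.

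Each peak carries 4 deposited values: the number of sequenced tags in it, a fold enrichment whose background is not stated, a p score (the p-value of the peak caller as its negative log10, times 10), and a false discovery rate (FDR) in percent. The fold and p score are the authors' own and serve here to describe and rank peaks within this list. The title of the list speaks of genes and start sites, but its columns hold neither. Annotation and sequence of mm9 were not used, so a peak is identified by its position and is assigned to no gene, exon or intron. In the order of protein-coding genes in RefSeq (GRCm38.p6, names only), Sox9 (gene 20682) lies between Gm11677 and Slc39a11, with the potassium channel gene Kcnj2 next beyond Gm11677. Sox5 (gene 20678) lies between Etnk1 and Bcat1, and Sox6 (gene 20679) between Insc and 1110004F10Rik.

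RefSeq promoter sequences (250 bases before to 50 after a start site, GRCm38.p6) were searched for the short motifs that Smad proteins are known to contact, because the study looked for direct Smad4 targets. The table used here held 1 promoter of Sox5 and 6 of Sox6. It held no promoter of Sox9, which could therefore not be searched. A 5-letter Smad box, CAGAC or its reverse complement GTCTG, was present in the Sox5 promoter and in 3 of the 6 Sox6 promoters, together 4 of 7, against 49.6% of 32851 promoters in the table. These 7 promoters, of Sox5 and Sox6 alone, are too few to set their share apart from that of promoters at large. Neither the palindrome GTCTAGAC, held by 0.213% of all promoters, nor GGCGCC, held by 11.9%, occurred in any of the 7, searched on both strands. To show what was counted, the Sox5 promoter, chr6:143947057-143947356 on the minus strand, and the Sox6 promoter that held 2 boxes, chr7:116030998-116031297 on the minus strand, are printed 5′ to 3′ with the Smad boxes in capitals. The capitals mark only where those letters stand. Because the coordinates belong to another build than the peaks, whether a peak covers either promoter was not analysed here.
Sox5 promoter: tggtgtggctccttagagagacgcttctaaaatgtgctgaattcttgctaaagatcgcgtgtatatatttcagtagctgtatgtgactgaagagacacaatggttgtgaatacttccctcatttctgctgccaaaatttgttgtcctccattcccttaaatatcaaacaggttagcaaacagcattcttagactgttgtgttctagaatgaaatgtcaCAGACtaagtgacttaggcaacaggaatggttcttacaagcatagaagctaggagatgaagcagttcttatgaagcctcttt
Sox6 promoter: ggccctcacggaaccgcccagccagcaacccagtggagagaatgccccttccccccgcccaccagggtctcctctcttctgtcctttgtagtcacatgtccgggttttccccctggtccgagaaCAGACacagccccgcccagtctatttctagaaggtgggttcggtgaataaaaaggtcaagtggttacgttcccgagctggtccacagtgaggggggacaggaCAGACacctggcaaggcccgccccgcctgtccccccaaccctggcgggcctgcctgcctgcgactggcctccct

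At the Sox9 locus Smad4 peaks were close in density and in height to those of the rest of chromosome 11. The 2.5 Mb window held 85 peaks, or 34.0 per Mb (27.2 to 42.0), and the rest of chromosome 11 held 3489, or 30.0 per Mb (29.0 to 31.0). The density was 1.13 times that of the rest of the chromosome, with an interval of 0.902 to 1.40 that includes 1. Of 47 adjoining windows of the same length laid along chromosome 11, 35 held fewer peaks and 11 held more, and the median window held 75. Sox9 thus stood in the upper part of the range of 45 to 106 peaks, but not at its end.

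Fold at Sox9 ran from 0.89 to 2.94 with a median of 1.47 (quartiles 1.30 and 1.78), and the rest of the chromosome had a median of 1.55. Of the 85 peaks, 15 had at least 2-fold enrichment (17.6%, 10.2 to 27.4%), against a background of 18.9% in the rest of chromosome 11 and 14.3% in the whole list. This share lay near that of the chromosome. At least 3-fold enrichment was found in 0 of 85 peaks, which allows a share of up to 3.53% by the limit of 3 counts and 4.25% by the exact interval, where the rest of chromosome 11 had 1.4%. The absence of such a peak is therefore within what this number of peaks can show. The fold was below 1 in 3 peaks.

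Most Sox9 peaks were also small. The median peak held 16 tags and 34 of the 85 (40.0%, 29.5 to 51.2%) held 15, the lowest number in the list, a share of 36.9% in the rest of the chromosome. The median length was 578 bp at Sox9 and 584 bp elsewhere on chromosome 11. In number of tags and in length, too, the middle of the distribution at Sox9 was close to that of the chromosome.

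**Figure D1:**
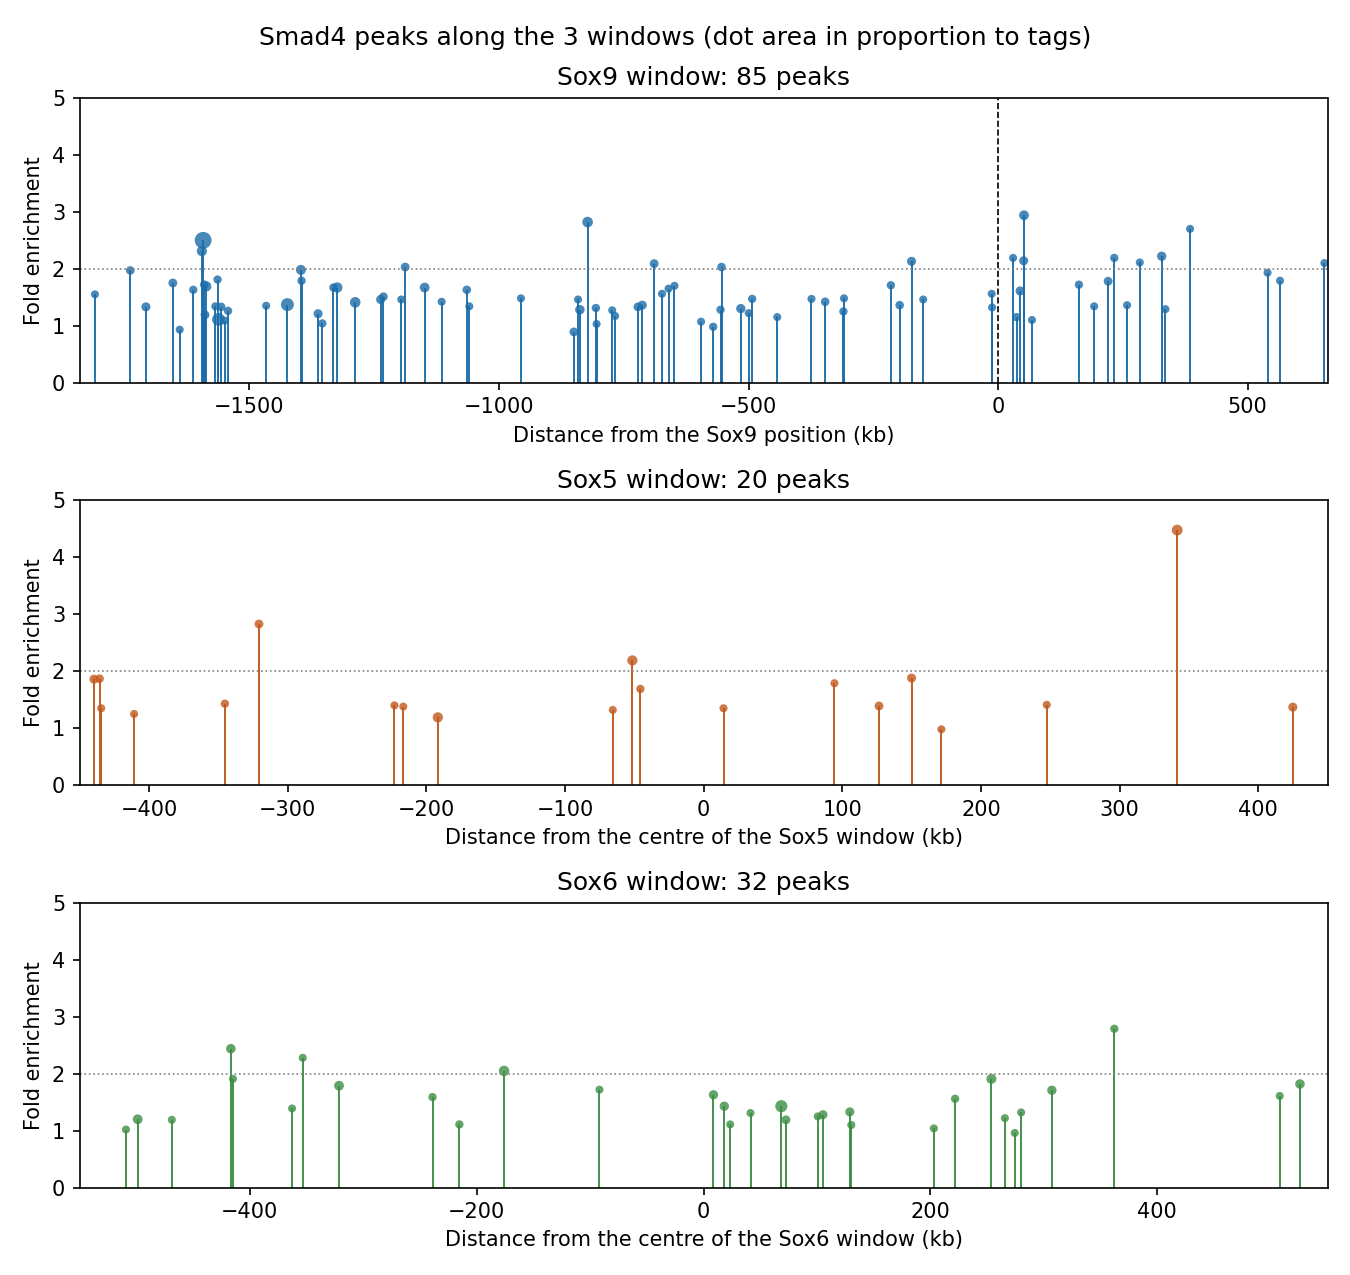
Deposited fold enrichment of every peak (height) along the Sox9, Sox5 and Sox6 windows, by distance in kb from the Sox9 position or from the centre of the window, with dot area in proportion to tags and a dotted line at 2-fold. At Sox9, 8 of 18 peaks above the position reach 2-fold and 7 of 67 below it do, and at Sox5 1 peak stands apart at 4.48-fold.

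The Sox9 position lay in a stretch without peaks, as most positions do. Peaks covered 2.06% of the Sox9 window and 1.84% of the rest of chromosome 11. Sox9 was placed at 112.64 Mb on chromosome 11, a position that comes with the definition of the window. Which part of the gene it marks is not stated, and the position was taken as rounded to within 5 kb. The nearest peak below it, chr11:112627703-112628223, ended 11.8 kb away, and the nearest above it, chr11:112669750-112670347, began 29.75 kb away. Allowing for the rounding, those distances were at least 6.78 kb and 24.75 kb, so no peak of the list lay at the position. Within 20 kb of the position there were 2 peaks, and no lack of peaks there was tested. They were a neighbouring pair below it, at chr11:112626925-112627493 with a fold of 1.56 and chr11:112627703-112628223 with a fold of 1.32, each with 15 tags (8.40 to 24.7) and 0.209 kb apart. By fold they ranked 38307 and 60834 of 90984 in the list.

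The sides of the Sox9 position differed in how high their peaks were. The limits of the gene desert are not given, and desert side here means the part of the window below the position. On the desert side, below the position and toward Kcnj2, 67 peaks lay over 1.84 Mb (36.4 per Mb, 28.2 to 46.2). Above it, toward Slc39a11, 18 peaks lay over 0.66 Mb (27.3 per Mb, 16.2 to 43.1). The ratio of these densities, 1.34 (0.784 to 2.39), has an interval that includes 1. By contrast, 8 of the 18 peaks above the position had a fold of at least 2 (44.4%, 21.5 to 69.2%), and 7 of the 67 on the desert side did (10.4%, 4.31 to 20.4%). The binomial intervals of these shares do not overlap, but only narrowly, at 20.4% and 21.5%. The background of 18.9% on the chromosome lies between the shares. The median fold was 1.86 above and 1.46 below. With peaks less than 1 kb apart counted once, the shares were 7 of 17 above and 7 of 62 below. With more than 15 tags they were 4 of 8 and 7 of 43. Intervals were not computed for these smaller sets, so the separation is not a firm call. A high share of peaks of at least 2-fold was not particular to the side next to Sox9. In the 3 windows of 2.5 Mb that follow the Sox9 window toward the end of the chromosome, 33 of 74 peaks (44.6%, 33.0 to 56.6%), 22 of 60 (36.7%, 24.6 to 50.1%) and 17 of 45 (37.8%, 23.8 to 53.5%) had at least 2-fold enrichment. The window just before it had 12 of 77 (15.6%, 8.32 to 25.6%). The comparison of sides was chosen after the values were seen, and it rests on few peaks of 1 library.

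The 8 peaks of at least 2-fold above the position were all small, with 15 to 22 tags, and lay 30.05 to 653.8 kb from it. The highest was chr11:112691557-112692193, with 22 tags (13.8 to 33.3), 2.94-fold enriched at a p score of 258.5 and 51.9 kb from the position. A second peak at chr11:112690954-112691530, with 19 tags and a fold of 2.14, ended 0.026 kb before it. Nowhere else in the Sox9 window was the fold as high, and on chromosome 11 the peak ranked 57 of 3574 by fold. Farther out, chr11:112967521-112968098 had 20 tags and a fold of 2.22, and chr11:113024363-113024863 had 15 tags and a fold of 2.70. The last of these was followed by the longest stretch without a peak in the window, 154.7 kb. Of the 3573 stretches between peaks on the chromosome, 64 were at least as long, this one included.

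On the desert side the peaks of at least 2-fold were scattered from 173.4 to 1595.3 kb below the position and held 17 to 65 tags. The highest fold there was 2.82, at chr11:111817223-111817888, with 26 tags (17.0 to 38.1) and a p score of 259.4, 822.4 kb from the position. It ranked 78 of 3574 peaks on chromosome 11 by fold.

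The largest peak of all 3 windows lay toward the lower end of the Sox9 window, 1592.7 kb below the position. At chr11:111046458-111048070 it held 65 tags (50.2 to 82.8) over 1613 bp, 2.50-fold enriched at a p score of 434.2 and an FDR of 0.25%. By p score it ranked 9 of 3574 on chromosome 11 and 393 of 90984 in the list. It was the second of a run of 5 peaks less than 2 kb apart, at chr11:111044291-111053949, which spanned 9.66 kb and held 148 tags, 9.61% of the tags in the peaks of the window. The first peak of the run, chr11:111044291-111045071, had 24 tags and a fold of 2.31. Folds in the rest of the run were lower, from 1.19 to 1.72. Other peaks on the desert side had many tags but a low fold. Among these were chr11:111077444-111078504 with 38 tags and a fold of 1.11 and chr11:111215453-111216699 with 39 tags and a fold of 1.37.

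Peaks did not gather around Sox9. Within 500 kb of the position there were 28 peaks (28.0 per Mb, 18.6 to 40.5), and in the rest of the window 57 (38.0 per Mb, 28.8 to 49.2), a ratio of 0.737 with an interval of 0.451 to 1.18. In steps of 250 kb the number of peaks ran from 3 to 14. The step from 1590 to 1340 kb below the position had 14 peaks and none of at least 2-fold, while the step from 160 to 410 kb above it had 9 peaks of which 4 reached 2-fold. The intervals of such small numbers are wide, at 30.6 to 94.0 peaks per Mb for the former and 16.5 to 68.3 for the latter, and they overlap.

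**Figure D2:**
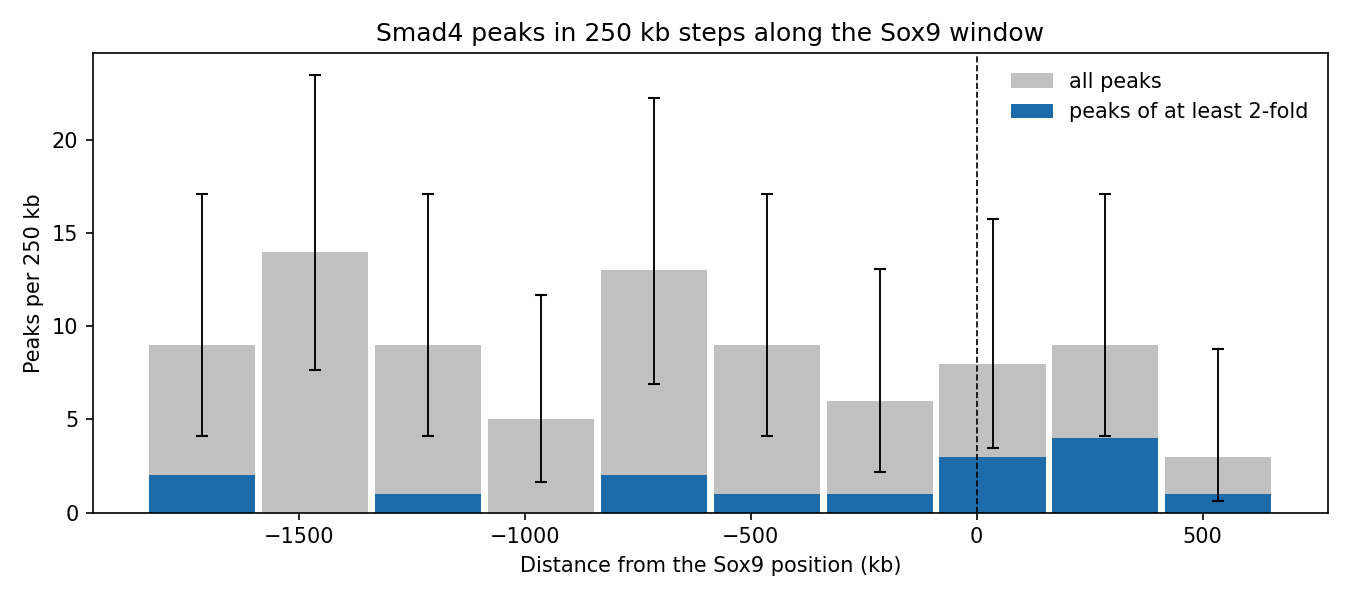
Number of peaks in each 250 kb step along the Sox9 window, by distance in kb from the Sox9 position (dashed line); grey bars are all peaks with exact Poisson 95% intervals, blue bars those of at least 2-fold. The steps hold 3 to 14 peaks, and the step from 160 to 410 kb holds the most peaks of at least 2-fold, 4.

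At the Sox5 locus peaks were sparse, and 1 of them was among the highest of the list. The 0.9 Mb window held 20 peaks, or 22.2 per Mb (13.6 to 34.3), where the rest of chromosome 6 held 5155, or 35.4 per Mb (34.4 to 36.4). At the density of the rest of the chromosome the window would have held 31.9. The ratio was 0.628 (0.383 to 0.970), and its interval lay below 1, while those of the other 2 windows included 1. The interval of Sox5 also reached 1 in 3 alternatives, with an upper bound of 1.06 for peaks of FDR at most 1%, 1.02 after merging peaks separated by under 1 kb and 1.01 with the window 100 kb longer at either end, so the lower density is not a firm call. Among 162 windows of this length on chromosome 6, 12 held fewer peaks, 5 as many and 144 more, in a range of 16 to 69 peaks. The counting interval takes peaks as independent, and 12 windows with fewer peaks are 7.45% of the other windows, so a window as sparse was not rare on this chromosome.

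The peak at chr6:144391341-144391891 had a fold of 4.48 and a p score of 516.2. It held 27 tags (17.8 to 39.3) in 551 bp, or 49.0 tags per kb. Its FDR of 0.46% was not among the lowest, as the median was 0.405% in the window and 0.33% in the whole list. By fold the peak ranked 43 of 90984 in the list and 2 of 5175 on chromosome 6. By p score it ranked 217 in the list and 12 on the chromosome. It lay 341.6 kb above the centre of the window, with 93.55 kb free of peaks below it and 82.77 kb above. In 160 of the 162 windows on chromosome 6 the highest fold was lower, and the median of the highest folds was 2.49.

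Of the 20 Sox5 peaks, 3 had at least 2-fold enrichment (15.0%, 3.21 to 37.9%), against a background of 12.6% in the rest of chromosome 6. At 3-fold the 4.48-fold peak was the only one, 1 of 20 (5%, 0.127 to 24.9%), where the rest of the chromosome had 0.582%. The other 2 peaks past 2-fold were chr6:143728994-143729565, with 18 tags (10.7 to 28.5) and a fold of 2.83, and chr6:143998221-143998971, the longest peak of the window at 751 bp, with 24 tags (15.4 to 35.7) and a fold of 2.19. The share of peaks past 2-fold thus lay near that of the chromosome. The median fold of all 20 was 1.41, and 1.47 in the rest of chromosome 6. After these 3, the next highest folds were 1.88, 1.87 and 1.86, each in a peak of 17 to 19 tags. As many tags as in the 2.19-fold peak, 24, lay in chr6:143857914-143858626, where the fold was 1.19 and the FDR 1.56%.

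The spacing of Sox5 peaks is largely another view of their density and not a separate result. The median distance between neighbouring peaks was 24.3 kb, against 17.4 kb over chromosome 6. Of the 19 distances, 2 (10.5%) were under 5 kb, against 23.8% on the chromosome. No interval was computed for these values. At Sox6, too, the median distance was longer than on its chromosome, 23.2 against 14.7 kb. Between chr6:143858627-143984235 there was no peak over 125.6 kb, and 105 of the 5174 distances on the chromosome, this one included, were at least as long.

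At the Sox6 locus the peaks were neither dense nor high. The 1.1 Mb window held 32 peaks, or 29.1 per Mb (19.9 to 41.1), and the rest of chromosome 7 held 5277, or 35.6 per Mb (34.6 to 36.5). The ratio was 0.818 with an interval of 0.559 to 1.16. Among 135 windows of this length on chromosome 7, 41 held fewer peaks and 87 held more, and the median was 36. Chromosome 7 also had 1 stretch of 7.11 Mb with no peak in the list used here, which lowers its density. Without that stretch the ratio was 0.779 (0.532 to 1.10). Windows lying in the stretch are counted among the 41 with fewer peaks.

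Of the 32 Sox6 peaks, 4 had at least 2-fold enrichment (12.5%, 3.51 to 29.0%), against a background of 17.7% in the rest of chromosome 7. Highest was chr7:123311834-123312374, with 16 tags (9.15 to 26.0) and a fold of 2.79, followed by chr7:122532928-122533529 with 21 tags and a fold of 2.44. The other 2 were chr7:122596312-122596909, with 15 tags and a fold of 2.28, and chr7:122773714-122774473, with 25 tags and a fold of 2.05. None of these stood out on the chromosome, where they ranked 116 to 805 of 5309 by fold. At least 3-fold enrichment was found in 0 of 32 peaks, which allows a share of up to 9.38% by the limit of 3 counts and 10.9% by the exact interval, and the rest of chromosome 7 had 1.14%.

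The order of Sox6 peaks by p score was another than by fold. The highest p score was 223.5, at chr7:123475423-123475967, with 21 tags and a fold of 1.82, and the next was 220.2, at chr7:123203434-123204066, with 23 tags and a fold of 1.91. The peak with the most tags, 34 (23.6 to 47.5), was also the longest at 1235 bp, at chr7:123017887-123019121, and had a fold of 1.43. It lay in a group of low peaks just above the centre of the window, none of which reached 2-fold. Of the 32 peaks, 15 held 15 tags (46.9%, 29.1 to 65.3%), against 34.0% in the rest of the chromosome. An FDR of at most 1% was given to 22 peaks (68.8%, 50.0 to 83.9%), against 79.2% in the rest. Both intervals include the value of the rest of chromosome 7.

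The longest stretch without a peak in the Sox6 window was 145.2 kb, at chr7:123312375-123457577, just above the peak of the highest fold. Of the 5308 distances on chromosome 7, 74 were at least as long, this one included. The median distance between Sox6 peaks was 23.2 kb, against 14.7 kb over the chromosome.

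**Figure D3:**
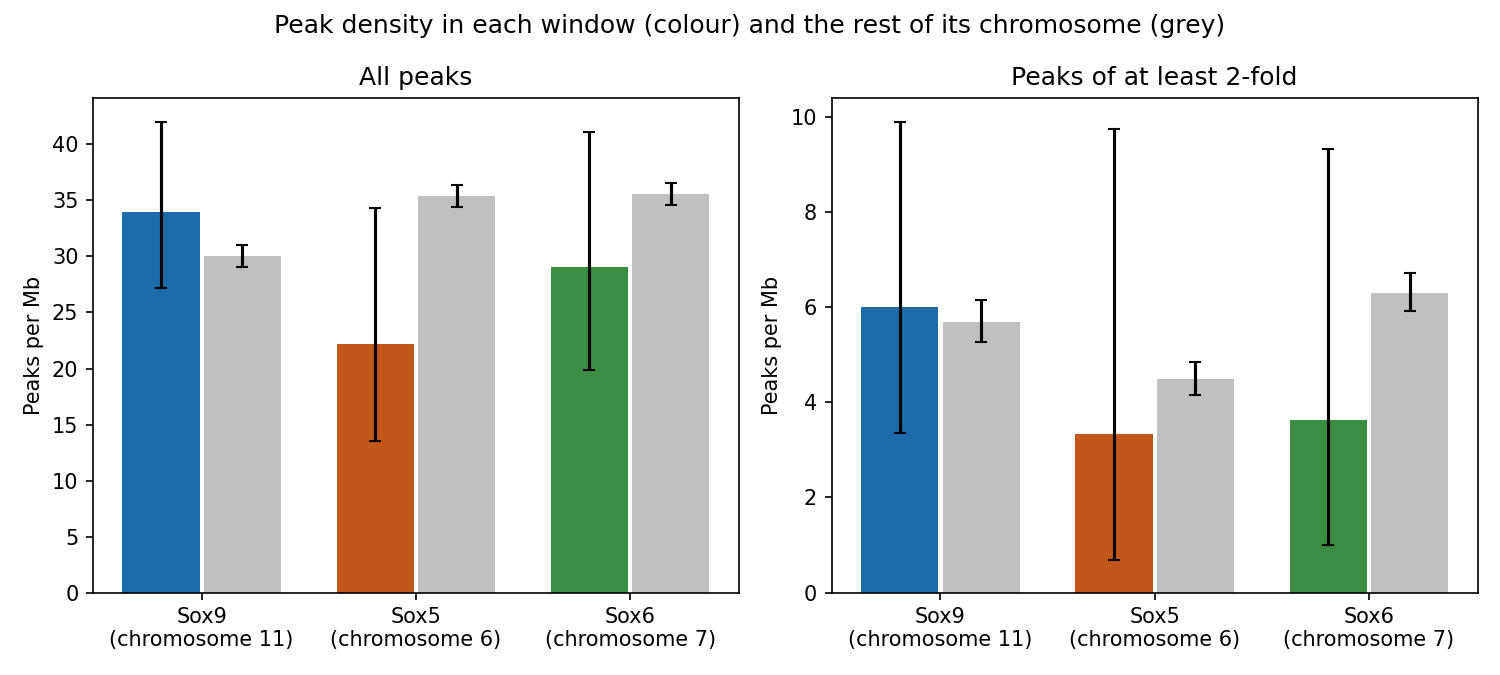
Peaks per Mb in the Sox9, Sox5 and Sox6 windows (coloured bars) and in the rest of chromosomes 11, 6 and 7 (grey bars), for all peaks (left) and peaks of at least 2-fold (right), with exact Poisson 95% intervals. Only for all peaks at Sox5, 22.2 against 35.4 per Mb, do the intervals of window and chromosome not overlap. They part narrowly, at 34.3 and 34.4 per Mb, and the lower density is not a firm call.

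The 3 windows were then set beside each other. Peaks per Mb were 34.0 at Sox9, 29.1 at Sox6 and 22.2 at Sox5, and the intervals of any 2 neighbours in this order overlap, as do those of Sox9 and Sox5. The median fold was 1.47, 1.41 and 1.41 in the same order. In each window the median was below that of the rest of its chromosome and inside the quartiles there. Peaks of 1.5-fold or more made up 45.9% of all at Sox9, 43.8% at Sox6 and 40.0% at Sox5, where the rest of chromosomes 11, 7 and 6 had 55.0%, 52.7% and 47.8%. The intervals of the windows, 35.0 to 57.0%, 26.4 to 62.3% and 19.1 to 63.9%, each include the value of the rest of the chromosome.

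Peaks of at least 2-fold had a density of 6.00 per Mb at Sox9 (3.36 to 9.90), 3.64 at Sox6 (0.991 to 9.31) and 3.33 at Sox5 (0.687 to 9.74). The rest of chromosomes 11, 7 and 6 had 5.69, 6.30 and 4.48 per Mb. The ratios were 1.06 (0.587 to 1.75), 0.577 (0.157 to 1.48) and 0.744 (0.153 to 2.19), and each interval includes 1. At this number of peaks, no excess or lack of such peaks was detectable at any of the 3 loci.

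Peaks of 15 tags and peaks of more tags were also compared apart, since fold in the list varies with the number of tags. The class of more tags is broad, and it reached 27 tags at Sox5 and 855 in the rest of chromosome 6. Among peaks of 15 tags the median fold was 1.44 at Sox9 and 1.44 in the rest of chromosome 11, 1.35 at Sox5 against 1.38 and 1.25 at Sox6 against 1.43. Among peaks of more tags it was 1.63 at Sox9 (51 peaks) against 1.62, 1.86 at Sox5 (11 peaks) against 1.53 and 1.59 at Sox6 (17 peaks) against 1.58. At Sox9 the values of window and chromosome lay close together in both classes. They lay further apart for more tags at Sox5 and for 15 tags at Sox6, and no interval was computed for these medians.

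**Figure D4:**
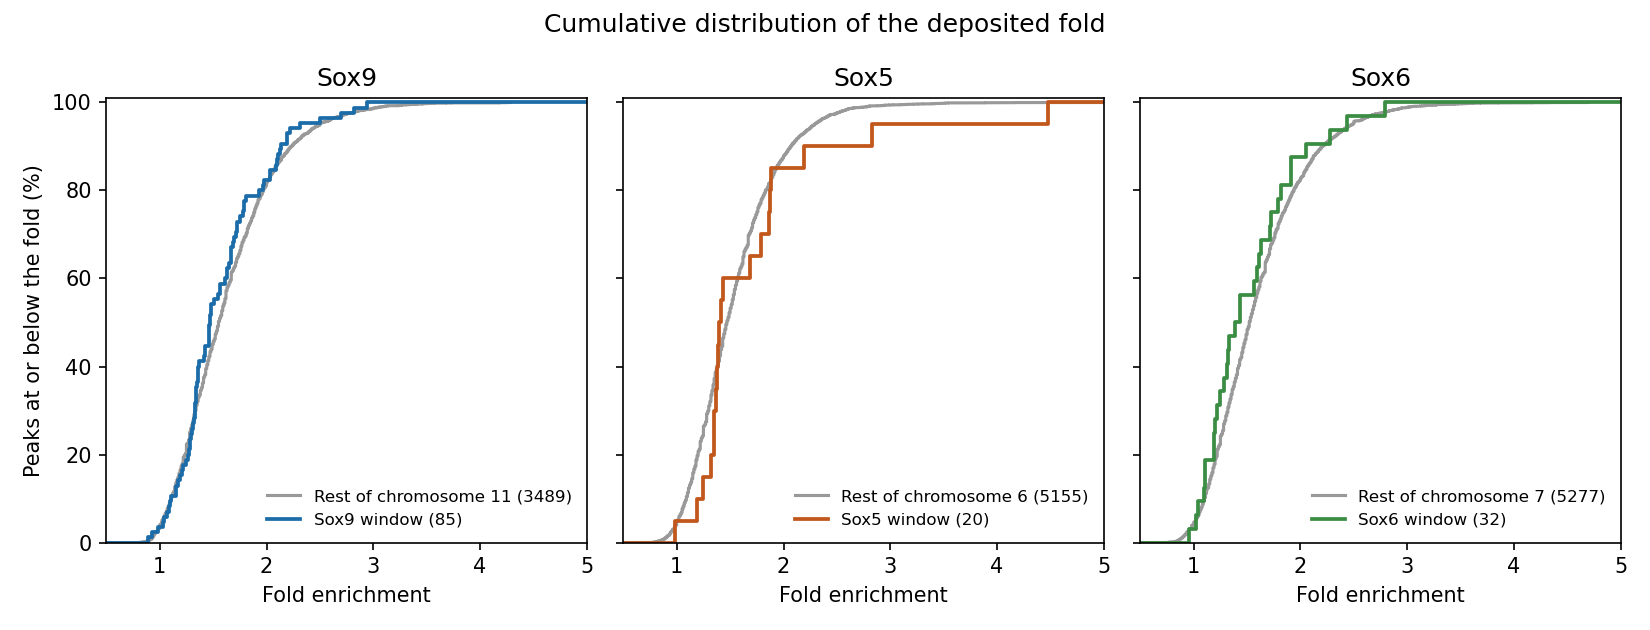
Cumulative share of peaks (percent) by deposited fold in each window (coloured line) and the rest of its chromosome (grey line). The curves of Sox9 and Sox6 end at 2.94 and 2.79, and that of Sox5 reaches 4.48 through 1 peak.

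**Figure D5:**
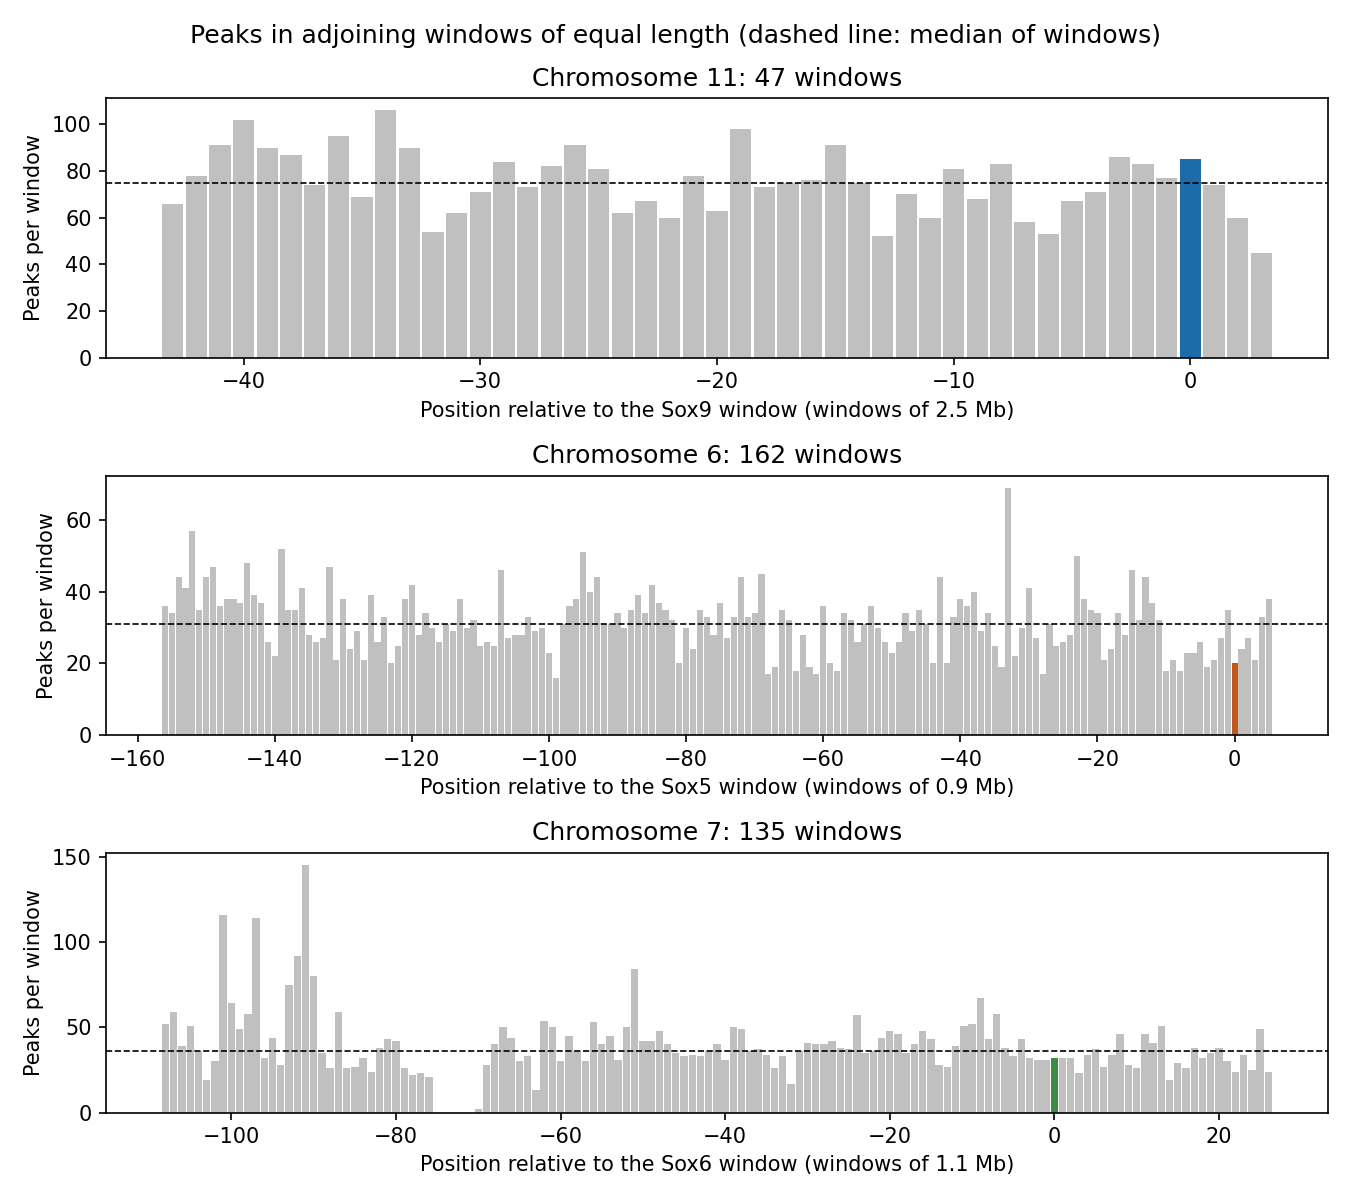
Number of peaks in adjoining windows of equal length along chromosomes 11, 6 and 7, laid out from the Sox9, Sox5 and Sox6 windows (coloured bars, position 0), with the median of windows as a dashed line. Sox9 has 85 against a median of 75, Sox5 20 against 31 and Sox6 32 against 36.

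By the highest fold rather than the number of peaks, Sox5 came first. The highest fold at Sox5, 4.48, was above that of 160 of the 162 windows on its chromosome. The highest at Sox6, 2.79, was above that of 80 of 135 windows, and the highest at Sox9, 2.94, above that of 15 of 47 windows, whose median was 3.10. The largest windows hold most peaks, so these places hold only among windows of 1 length.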

How the data were processed

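The deposited file was 1 list of 90984 peaks with the columns of a MACS14 table, per the file headers, and its columns name no sample. The submitters' processing notes name BWA, SICER, MACS and mm9, without versions, roles or settings. Tag counts, the p score (10 times the negative log10 of the p-value), the fold as a ratio and the FDR as a percent were deposited by the authors and used as they stand. Library depth is unknown.

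Peaks were placed by midpoint, and a chromosome was taken to reach from its first to its last peak. Windows, motifs and limits were chosen with earlier results of these data known. Peaks to describe singly were drawn, per window, from the 5 highest in fold, the 5 highest in p score and the 3 with most tags. The longest peak, the longest stretch without a peak and Sox9 peaks within 20 kb were added. Not every peak so drawn is given with its position. The other Sox9 peaks and the run of peaks were chosen after their values were seen. No test across samples was possible with 1 library of each kind. Ratios of density have exact conditional binomial 95% intervals. Alternatives changed the peaks used, their assignment, window edges, fold limits and comparison region. The work was done in Python 3.11.15 with scipy 1.17.1, numpy 2.4.6, matplotlib 3.10.9 and pandas 2.3.3, and procedures were tested on simulated data.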

Additional observations from a re-analysis of the deposited data

How the results depend on the processing

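Of 74 alternative values, 65 stayed inside the interval of the value reported, but a number of these equal that value and add nothing. Placing peaks by start or summit, or moving the Sox9 position by 5 kb, changed no value. Leaving out stretches of at least 100 peaks per Mb, or those over 1 Mb without a peak, changed no density ratio at Sox9 or Sox5. The intervals are 95% intervals except for the difference between the sides of Sox9. Those for the percentage of other windows with fewer peaks take adjoining windows as independent, which neighbours on a chromosome are not. The count of 65 includes values judged by them. The ratio of peak density stayed between 0.606 and 0.693 at Sox5, with an upper bound above 1 in 3 alternatives (1.06, 1.02 and 1.01), and between 0.710 and 0.878 at Sox6. At Sox9 it ran from 0.968, against all autosomes, to 1.19, so its side of 1 depends on the comparison region. The share past the fold limit moved with the limit by construction: at 1.5-fold it was 45.9% at Sox9, 40.0% at Sox5 and 43.8% at Sox6, and at 3-fold 0% at Sox9 and 0% at Sox6. The percentage of other windows with fewer peaks was 76.1% for Sox9, 7.45% for Sox5 and 30.6% for Sox6. The value for Sox6 counts windows in the long stretch of chromosome 7 without a peak. With peaks of at least 2-fold alone it was 60.9%, 28.0% and 22.4%, and with FDR at most 1% it was 17.2% for Sox6. The cause was not tested. The ratio of density within 500 kb of Sox9 to the rest of the window was 0.8 with FDR at most 1% and 0.750 from 1.5-fold up, and it was 0.928 within 250 kb and 0.952 within 1 Mb on the lower side. The difference in the share of 2-fold peaks between the sides of Sox9 was 34 percentage points. Its range of 1.18 to 64.9 comes from the bounds of both exact intervals and is not a 95% interval. The difference was between 29.9 and 39.0 in 7 alternatives added after seeing the data, for which no intervals were computed. Leaving out stretches over 1 Mb that hold no peak was also added then. No paired analysis was possible because the ChIP and the input are single libraries. Precision is limited by tags: 15 tags have an interval of 8.40 to 24.7. No peak of the list held fewer than 15, and the intervals of tags take no account of that limit.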
